A study of Mus musculus with 12 samples.

Results

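The 9 genes Nkx2-1, Rax, Sim1, Otp, Nr5a1, Fezf1, Isl1, Hmx2 and Lhx9 encode transcription factors that lay out the nuclei of the hypothalamus and stay expressed there in the adult. They were taken by gene symbol from the normalized array table, where 18 probes carried 1 of these symbols. The table holds 56605 probes and 27308 gene symbols in all, and the rule used no measured value. Of the 18 probes, 15 passed the detection filter of the study's methods, which asks that the 3 arrays of at least 1 group all read the probe well above background. These 15 probes covered all 9 genes and were tested among 35229 probes.

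Hypothalamus RNA from male mice of 6 to 7 weeks by the labels, the age at which training began by the methods, was measured on Agilent mouse arrays with a single color. The 4 groups held 3 arrays each. Wild-type control mice (WT) and Asmt-knockout control mice (KO) did not swim, and wild-type exercise mice (exercised WT) and Asmt-knockout exercise mice (KE) were trained by swimming. Knockout mice were homozygous for a 20 bp deletion made by CRISPR/Cas9 in Asmt, whose product catalyses the last step of melatonin synthesis, and their founders had been backcrossed for 3 generations to C57BL/6 littermates. The labels do not say whether each array came from 1 animal, so the p-values below measure the spread between these arrays. The paper states that the C57BL/6J strain has an inborn shortage of Asmt activity and melatonin. It found no significant effect of the knockout on serum melatonin. The question put to each comparison was whether the Asmt knockout, swimming, or swimming in 1 genotype but not the other changed the signal of these factors.

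The hypothalamus grows from the ventral diencephalon, where homeodomain factors such as Nkx2-1 and Rax define the territory and later factors divide it into nuclei. Sim1 and Otp direct the neuroendocrine neurons of the paraventricular and supraoptic nuclei. Nr5a1 and Fezf1 mark the ventromedial nucleus, and Isl1 and Hmx2 act in the arcuate nucleus, where neurons that control feeding and growth lie. Lhx9 is a LIM homeodomain factor of the developing diencephalon and is used in the thalamus as well as in hypothalamic neurons. In a bulk sample such as this one, fewer cells of a type and less RNA per cell cannot be told apart.

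Each value below is the quantile-normalized log2 signal of one 60-base probe, so a difference of 1 is a doubling. Of the probes, 5 are shown because results turn on them, written 5′ to 3′ with G and C in capitals. The first is an Otp probe that was well above background on no array, although the other Otp probe was detected on all 12. It lies in the stretch that codes for the homeodomain, at chr13:95647384-95647443 (mm9, plus strand), and holds 33 G or C.
Otp, second probe: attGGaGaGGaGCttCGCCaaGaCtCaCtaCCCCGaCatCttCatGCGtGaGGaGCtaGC
The second Nkx2-1 probe lies at the 3′ end of the coding sequence, at chr12:57634028-57634087 (mm9, minus strand). The third Lhx9 probe, at chr1:140729280-140729339 (mm9, minus strand), again lies in the homeodomain-coding stretch. Between arrays of the same group and slide it followed the brightest Lhx9 probe (Pearson's r = 0.91, 11 arrays). Between the slides it did not: the KO array of slide 2 minus the KO mean of slide 1 was 0.72, against -0.29 at the brightest probe.
Nkx2-1, second probe: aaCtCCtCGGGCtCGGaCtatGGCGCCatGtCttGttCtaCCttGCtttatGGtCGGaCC
Lhx9, homeodomain probe: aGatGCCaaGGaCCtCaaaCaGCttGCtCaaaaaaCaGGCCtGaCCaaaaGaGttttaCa
Of the Sim1 probe (chr10:50708865-50708924, mm9, plus strand) and the second Fezf1 probe (chr6:23202239-23202298, mm9, minus strand), bases 31 to 60 are shown. The Sim1 stretch holds 7 G or C in 30 bases and the Fezf1 stretch 10.
Sim1, bases 31 to 60: aatGtGCataaaatGtatttattatGtGaG
Fezf1, second probe, bases 31 to 60: atttGtattCCCGttGGtGttGttttGtta

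The arrays lay on 2 slides, and slide and group overlapped. All WT arrays lay on slide 1 together with KO replicates 1 and 2. All exercised arrays lay on slide 2 together with KO replicate 3. Swimming and slide can therefore be separated only through the KO group. Between 61.6% and 67.9% of the 59305 non-control spots were well above background on each array, and no spot was saturated. The 1 Asmt probe was well above background on 0 arrays, so it does not check the knockout. Markers of the labelled tissue were present: all 57 genes of 7 hypothalamic marker lists, with Hcrt, Pmch, Avp, Oxt, Pomc and Agrp among them, had a probe past the filter. Of all 56605 probes, 35229 passed it. Markers of neighbouring tissue passed as well: 5 of 5 genes for thalamus, 6 of 6 for striatum and 6 of 6 for choroid plexus. For cortex and hippocampus it was 5 of 7 and for anterior pituitary 2 of 6. Passing the filter therefore does not single out the hypothalamus.

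The territory factors were detected on every array. Nkx2-1, which the ventral forebrain needs to become hypothalamus, stood at 10.69, 10.62 and 10.55 in WT, at 10.85, 10.61 and 10.66 in KO, at 10.59, 10.53 and 10.41 in exercised WT and at 10.58, 10.58 and 10.49 in KE (brightest probe). Its 12 values spanned 0.43. WT overlapped every other group, whereas the 3 KO arrays lay above all 6 exercised arrays. How many of all tested probes separate groups in such a way was not counted. Separations of groups, here and below, are therefore given as a description. Its second probe was dim and gave 5.17, 5.92 and 4.91 in WT and 4.66, 4.47 and 4.72 in exercised WT, which did not overlap. Rax, a homeodomain factor of the eye field that stays on in tanycytes, the glia lining the third ventricle, stood at 8.33, 8.17 and 7.75 in WT, 8.80, 8.00 and 8.75 in KO, 8.82, 8.32 and 7.66 in exercised WT and 8.63, 8.28 and 8.24 in KE. Rax varied over 1.16 and all 4 groups overlapped. A second Rax probe was well above background on 0 arrays.

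Of the factors of the paraventricular and supraoptic nuclei, Otp was steady and Sim1 was not. Otp, a homeodomain factor, stood at 13.15, 12.96 and 12.75 in WT, 12.94, 12.82 and 12.96 in KO, 12.83, 12.72 and 12.44 in exercised WT and 12.93, 12.69 and 12.65 in KE. All groups overlapped. Sim1, a bHLH-PAS factor without which these neurons do not form, stood at 4.22, 5.08 and 4.10 in WT, 4.10, 4.15 and 7.23 in KO, 6.60, 6.62 and 6.21 in exercised WT and 6.77, 6.44 and 6.50 in KE. The split followed the slide and not the group: the 5 arrays of slide 1 lay between 4.10 and 5.08 and the 7 arrays of slide 2 between 6.21 and 7.23. The Sim1 probe was well above background on 9 arrays, namely 2 of the 3 WT arrays, 1 KO array and all exercised arrays, so it passed the filter only through the exercised groups.

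The factors of the ventromedial and arcuate nuclei were detected on every array with their brightest probes. Nr5a1, the nuclear receptor also called steroidogenic factor, stood at 10.02, 9.66 and 9.56 in WT, 10.16, 9.87 and 10.03 in KO, 10.00, 9.64 and 9.47 in exercised WT and 9.88, 9.91 and 9.47 in KE. Fezf1, a zinc finger repressor, stood at 10.52, 10.32 and 10.13 in WT, 10.72, 10.39 and 10.23 in KO, 10.32, 10.15 and 9.96 in exercised WT and 10.27, 10.11 and 10.02 in KE. For both genes all groups overlapped. The second Fezf1 probe was tighter, at 6.53, 6.32 and 6.41 in WT, 6.69, 6.65 and 6.59 in KO, 6.34, 6.26 and 6.25 in exercised WT and 6.38, 6.29 and 6.24 in KE. On it the 3 KO arrays lay above all 9 others. Another Nr5a1 probe was well above background on 2 arrays and was not tested.

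Isl1, a LIM homeodomain factor of arcuate neurons, had a mean of 10.55 ± 0.14 in WT and 10.63 ± 0.09 in KO, against 10.48 ± 0.06 in exercised WT and 10.48 ± 0.12 in KE (SD, n = 3, brightest probe), and of these groups only KO and exercised WT did not overlap. Its second probe stood at 8.62, 8.17 and 8.34 in WT, 8.66, 8.40 and 8.54 in KO, 8.40, 8.14 and 8.22 in exercised WT and 8.32, 8.27 and 8.20 in KE, with the KO arrays above the KE arrays. Hmx2, a homeodomain factor needed for the neurons that make growth hormone-releasing hormone, stood at 8.32, 8.35 and 8.25 in WT, 8.38, 8.61 and 8.36 in KO, 8.37, 7.09 and 8.05 in exercised WT and 8.41, 8.25 and 8.17 in KE. A single array, exercised WT replicate 2, was low on this probe, and the 3 KO arrays lay above the 3 WT arrays. The second Hmx2 probe stood at 7.69, 7.77 and 7.69 in WT, 7.83, 7.95 and 7.91 in KO, 7.69, 7.58 and 7.32 in exercised WT and 7.78, 7.62 and 7.62 in KE. On it KO lay above all 9 other arrays and exercised WT replicate 2 was not the lowest. Lhx9 stood at 7.35, 7.75 and 8.05 in WT, 7.28, 7.87 and 7.29 in KO, 7.24, 7.62 and 8.20 in exercised WT and 7.59, 7.77 and 8.10 in KE. All 4 groups overlapped for Lhx9.

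**Figure D1:**
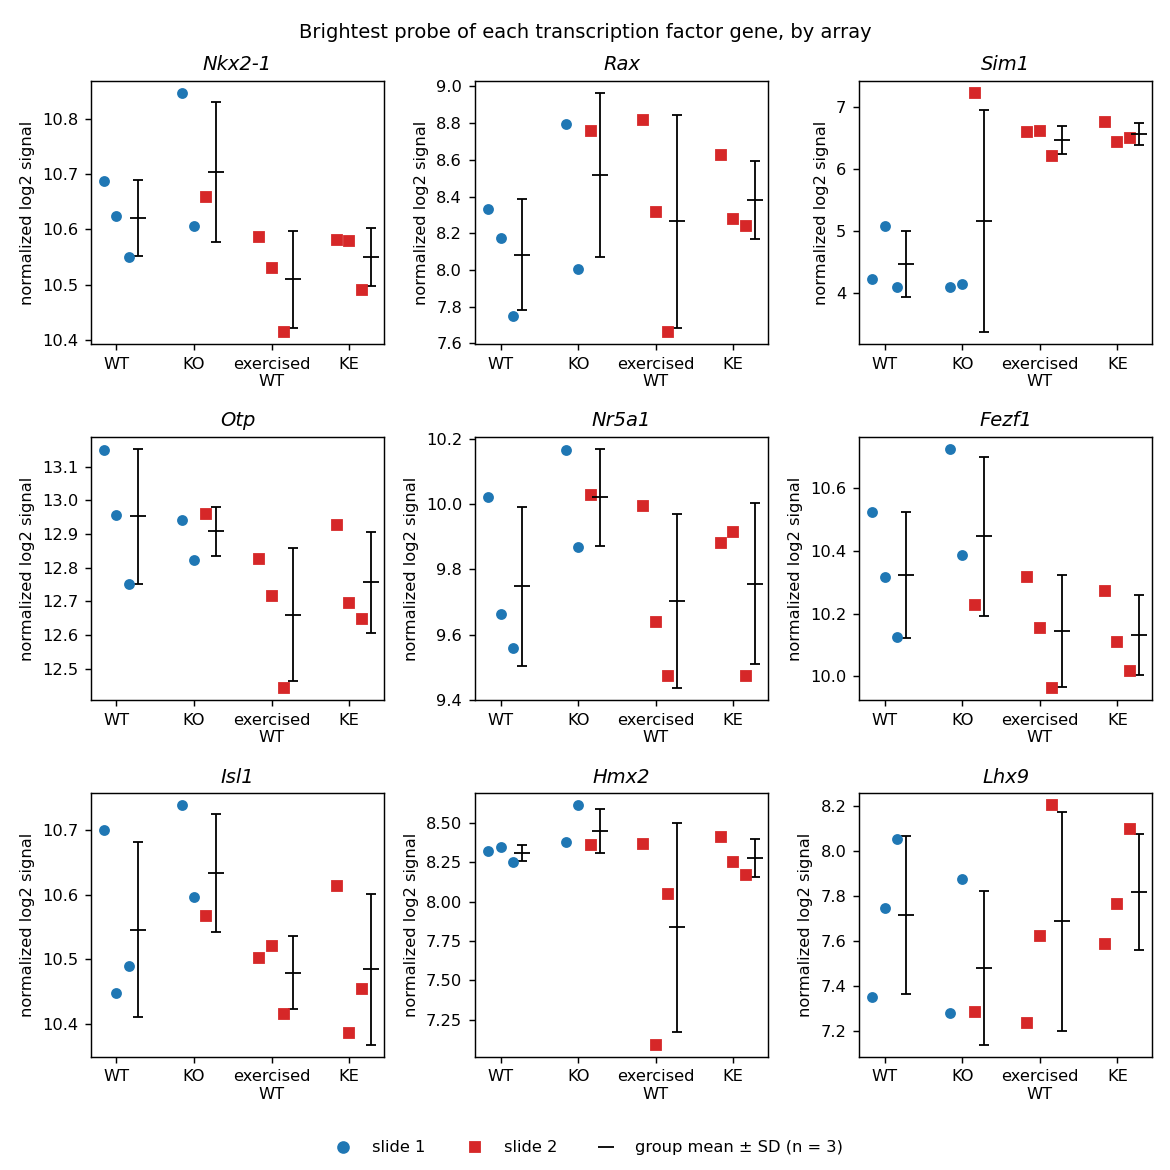
Normalized log2 signal (vertical axes, which differ between panels and do not start at 0) of the brightest probe of each gene on each array, by group, with slide 1 as blue circles, slide 2 as red squares and the group mean ± SD (n = 3) as black bars. Groups overlap for most genes, Sim1 splits by slide (4.10 to 5.08 against 6.21 to 7.23), and Hmx2 has 1 low array at 7.09.

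The Sim1 split was examined on the KO group, the only group on both slides. The KO array of slide 2 exceeded the mean of the 2 KO arrays of slide 1 by 3.11 at the Sim1 probe, whereas the other 14 tested probes of these genes differed by -0.57 to 0.72 in the same way. Only 50 of the 35229 tested probes (0.142%) had a difference at least as high as Sim1, and the median over all of them was -0.06. Of the 15 tested probes only Sim1 had no overlap between slides, where 10.4% of all tested probes had every slide 2 array above every slide 1 array and 11.4% every one below. The Sim1 probe is poor in G and C (23.3%), as its printed stretch shows. The 419 tested probes with up to 30% G+C had a median difference of 0.33, and 75.9% of them were above 0, against 0.01 for probes with over 30% to 35%. The median was above 0 at the other end of the range as well: the 387 probes with over 60% G+C had 0.18, and 61.2% of them were above 0. Across all tested probes G+C content and the difference were weakly related (Pearson's r = -0.05, Spearman's rho = -0.12, across probes, which are not independent). The part of base composition in the Sim1 values was not tested.

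**Figure D2:**
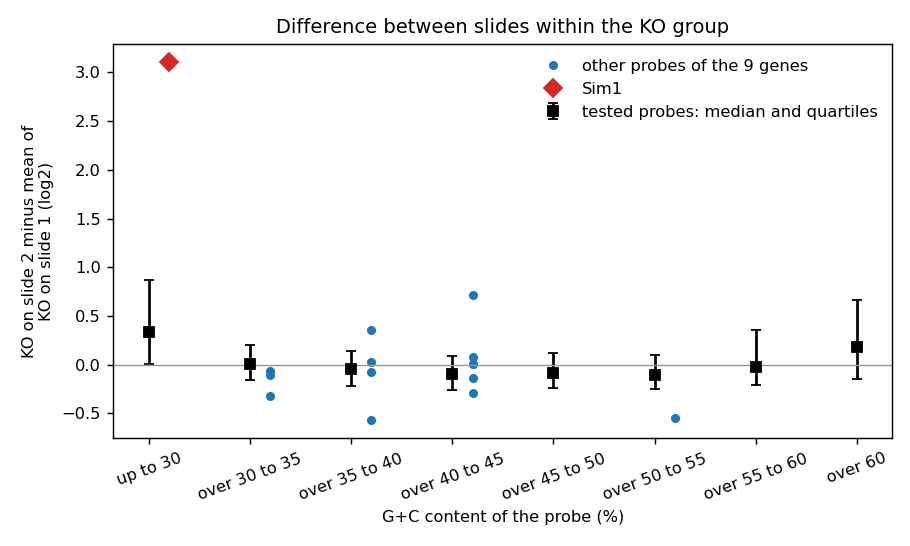
KO signal on slide 2 (1 array) minus the mean KO signal on slide 1 (2 arrays), in log2 units, against the G+C content of the probe in classes, with black squares and bars for the median and quartiles of all tested probes. Sim1 (red diamond) lies at 3.11 in the lowest class, where the median is 0.33, and the other probes of the 9 genes (blue circles) lie between -0.57 and 0.72.

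Without exercise, KO and WT differed at 1 probe before adjustment and at 0 after it. In KO versus WT, 1 of the 15 probes reached an unadjusted p of up to 0.05, against 5.47% of all tested probes (2.38% higher in KO), and it was the second Fezf1 probe, higher in KO. Its mean was 6.42 ± 0.11 in WT and 6.64 ± 0.05 in KO (SD, n = 3), a difference of 0.22 (SE 0.07) or 1.17-fold. The difference did not pass over all tested probes (limma adjusted p = 0.846). With the slide as a block, which here sets KO replicates 1 and 2 against WT, the difference was 0.25 (limma adjusted p = 0.79), and this was then 1 of the 15 probes at an unadjusted p of up to 0.05, as were 5.48% of all tested probes. The brightest Fezf1 probe gave 0.12 (95% interval -0.21 to 0.45). Between arrays of the same group and slide the 2 probes followed each other with r = 0.70.

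None of the 15 probes met the screening criterion of the methods in KO versus WT, a change of 2-fold or more at an unadjusted p of up to 0.05, which 0.227% of the tested probes met. At the brightest probes the differences were 0.08 for Nkx2-1, 0.43 for Rax, 0.70 for Sim1, -0.04 for Otp, 0.27 for Nr5a1, 0.09 for Isl1, 0.14 for Hmx2 and -0.24 for Lhx9. At these brightest probes the 95% intervals of Nkx2-1, Otp, Nr5a1, Fezf1 and Isl1 stayed within -0.33 and 0.66. Those of Hmx2 and Lhx9 stayed within -0.84 and 0.71, so a doubling or a fall of the same size lay outside all of these intervals. The intervals of Rax (-0.24 to 1.11) and Sim1 (-0.86 to 2.25) held a doubling. Of the 15 probes, 10 were higher in KO, with a median of 0.12 beside -0.01 over all tested probes. All 3 Lhx9 probes were lower, by -0.24, -0.58 and -0.46, and none of them passed (limma adjusted p = 0.846 at the lowest). On slide 1 alone the Sim1 difference became -0.34.

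Genotype under exercise was compared within slide 2 only, since all KE and exercised WT arrays lay there. In KE versus exercised WT, 0 of the 15 probes reached an unadjusted p of up to 0.05 in limma (6.71% of all tested probes did), and 0 met the screening criterion (0.25%). The slide as a block (10.3% of all tested probes) and the methods' t-test also gave 0. The brightest probe of Sim1 stood at 6.57 ± 0.18 in KE and 6.48 ± 0.23 in exercised WT (SD, n = 3), a difference of 0.09. Nkx2-1 differed by 0.04, Otp by 0.10, Nr5a1 by 0.05, Fezf1 by -0.01, Isl1 by 0.00495 and Rax by 0.12. The widest difference was that of Hmx2, 0.44 (95% interval -0.13 to 1.01), which rested on the low array: without exercised WT replicate 2 it was 0.07. The smallest adjusted p among the 15 probes was 0.796 in limma.

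In KE versus KO, 3 of the 15 probes had an unadjusted p of up to 0.05, all lower in KE, against 21.1% of all tested probes (13% lower in KE), so the share was near that of all probes. They were the second probes of Fezf1, Isl1 and Hmx2, and none passed after adjustment. The second Fezf1 probe stood at 6.30 ± 0.07 in KE and 6.64 ± 0.05 in KO (SD, n = 3), and the groups did not overlap. That difference was -0.34 (SE 0.07, limma adjusted p = 0.103). The second Isl1 probe differed by -0.27 (limma adjusted p = 0.226) and the second Hmx2 probe by -0.23 (limma adjusted p = 0.207). At the brightest probes Fezf1 differed by -0.31, Nr5a1 by -0.26, Nkx2-1, Otp and Isl1 by -0.15 each, Hmx2 by -0.17, Rax by -0.14, Lhx9 by 0.34 and Sim1 by 1.41, and none of these had an unadjusted p of up to 0.05. No probe met the screening criterion, which 1.21% of the tested probes met.

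The comparison of KE with KO crosses the slides for KO replicates 1 and 2. A fit that blocks on the slide rests on KO replicate 3 alone, and 1 of the 15 probes then had p up to 0.05 (9.06% of all tested probes), again the second Fezf1 probe at -0.29 (limma adjusted p = 0.398). The second Isl1 probe (-0.28) and the second Hmx2 probe (-0.24) were not among the probes at that p in the blocked fit. At the brightest Fezf1 probe the difference was -0.31 without and -0.10 with the block. Sim1 turned from 1.41 to -0.66, since KO replicate 3 at 7.23 lay above all 3 KE arrays.

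In wild-type mice, swimming and slide cannot be told apart without the KO group. In exercised WT versus WT, 3 of the 15 probes had an unadjusted p of up to 0.05 (25.9% of all tested probes), and 1, Sim1, met the screening criterion (2.19%, of which 2.07% higher in exercised WT). Sim1 stood at 4.46 ± 0.53 in WT, where 2 of the 3 arrays read it well above background, and at 6.48 ± 0.23 in exercised WT (SD, n = 3). The difference of 2.01 is given as a description only, because the probe was tested only through the groups in which it was high. With the slide as a block the sign turned, to -1.10 (limma adjusted p = 0.798), and KO differed between slides by 3.11. Of the 15 probes 1, again Sim1, then had an unadjusted p of up to 0.05 (6.17% of all tested probes). With normexp background correction the difference was 0.82, and without WT replicate 3 it was 1.83 and no longer met the criterion.

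The other 2 probes at p up to 0.05 in exercised WT versus WT were lower after swimming. Otp stood at 12.95 ± 0.20 in WT and 12.66 ± 0.20 in exercised WT, a difference of -0.29 (limma adjusted p = 0.182), and the groups overlapped. The second Nkx2-1 probe differed by -0.72 (limma adjusted p = 0.151), with no overlap, but its brightest probe differed by -0.11. Between arrays of the same group and slide the 2 Nkx2-1 probes followed each other with r = 0.31 only. With the slide as a block the Otp difference was -0.37 (limma adjusted p = 0.821) and that of the second Nkx2-1 probe -0.17. Fezf1 differed by -0.18, Nr5a1 by -0.05, Isl1 by -0.07, Rax by 0.18 and Lhx9 by -0.03. Hmx2 differed by -0.47, and by -0.10 without exercised WT replicate 2.

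**Figure D3:**
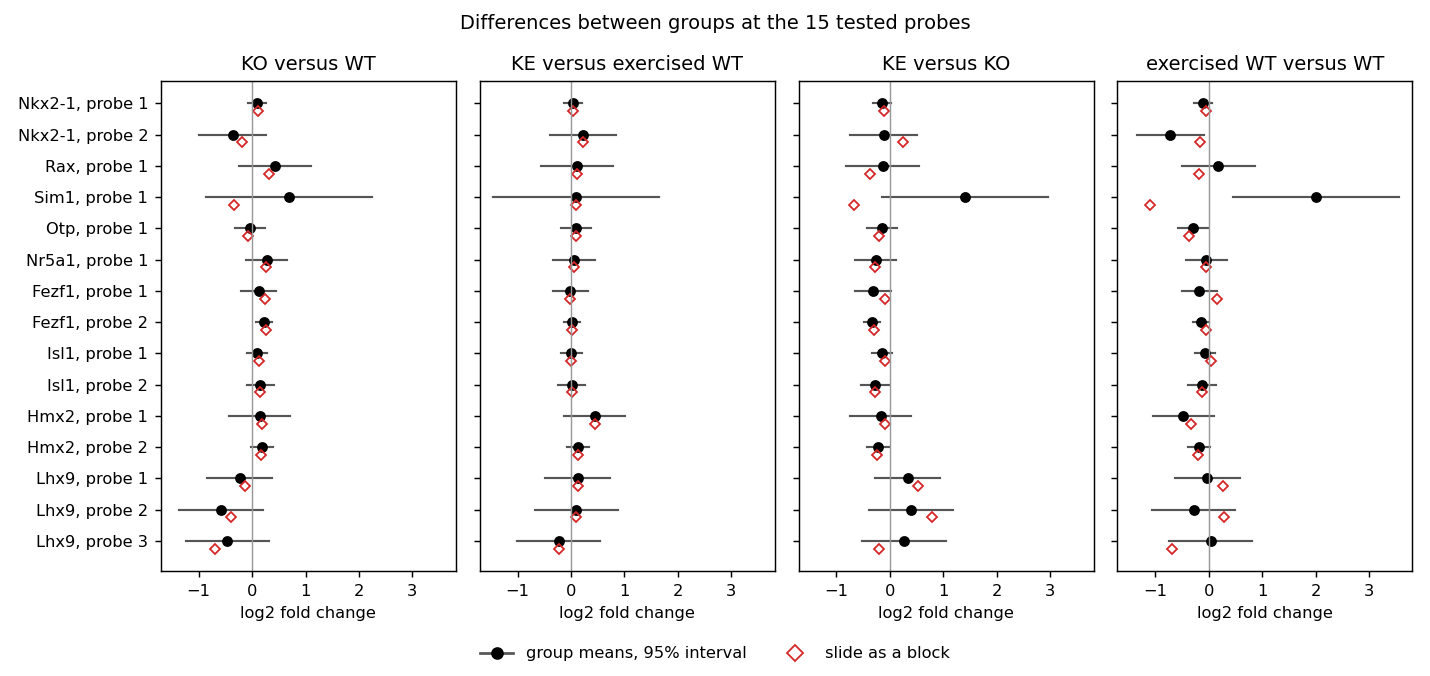
Differences between group means in log2 units (horizontal axis) for the 15 tested probes in 4 comparisons, the first group minus the second, with black circles and lines for the fit on group means and its 95% interval and open red diamonds for the fit with the slide as a block. Most intervals cover 0, and Sim1 moves from 2.01 to -1.10 in exercised WT versus WT.

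The response to swimming did not differ detectably between genotypes at these factors. In the interaction, the difference of KE minus KO from exercised WT minus WT, 0 of the 15 probes had an unadjusted p of up to 0.05 in limma (7.76% of all tested probes) and 0 met the screening criterion (0.602%). The second Fezf1 probe, with the smallest p of the 15, had an interaction of -0.20 (95% interval -0.42 to 0.01). With the slide as a block it was -0.23, and this was then 1 of the 15 probes at an unadjusted p of up to 0.05 (10.9% of all tested probes). Its limma adjusted p was 0.646 without and 0.441 with the block. In none of the 5 comparisons did a probe of the 9 genes have a limma adjusted p under 0.05, which 0.0199% of all tested probes had in KE versus KO and 0 in the others.

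Several of the 9 genes deviated together between arrays of the same group. To see this, the mean of the arrays of the same group and slide was subtracted from each value, which left 11 arrays (KO replicate 3 was the only KO array of its slide and was dropped) and removes any difference between groups or slides. The remaining spread, the SD within group and slide, was 0.42 for Rax, 0.38 for Lhx9, 0.37 for Hmx2, 0.32 for Sim1, 0.25 for Nr5a1, 0.18 for Fezf1, 0.17 for Otp, 0.11 for Isl1 and 0.09 for Nkx2-1. Rax, Lhx9 and Hmx2 lay above 98.3%, 97.6% and 97.2% of the 32070 probes detected on all arrays in this SD, and Nkx2-1 above 42.8%.

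Across these deviations 36 pairs of genes were correlated, with exact permutation tests of the arrays within group and slide (432 permutations, smallest p 0.00231) and Benjamini-Hochberg adjustment over the 36 pairs. In 15 pairs the adjusted p was up to 0.05, and in 14 with ranks. The share of pairs of all probes that would pass in this way was not computed. Deviations of Fezf1, Rax, Nkx2-1 and Otp fell with the replicate number in every group, and those of Lhx9 rose with it. The permutations treat arrays of the same group and slide as exchangeable. Whether the replicate numbers stand for a shared order of the arrays was not tested, so the pairs are not separate findings. Fezf1 rose and fell with Rax (Pearson's r = 0.94, Spearman's rho = 0.94), with Otp (0.93 and 0.94), with Nkx2-1 (0.93 and 0.90) and with Nr5a1 (0.89 and 0.84). The adjusted p for r was 0.0167 for Rax and for Otp, 0.0208 for Nkx2-1 and 0.0256 for Nr5a1 by exact permutation, and for rho it was 0.0139, 0.0139, 0.0227 and 0.0321. Rax and Nkx2-1 followed each other with r = 0.92 (rho = 0.95, exact permutation p = 0.00694 and 0.00926). Of the 32070 probes detected on all arrays, 0.337% had an absolute r with Fezf1 at least that of Rax. For Otp this share was 0.408%, for Nkx2-1 0.421% and for Nr5a1 1.35%. Among the weaker of the 15 pairs it was 4.79% for Nr5a1 with Rax and 5.94% for Otp with Nkx2-1. Otp and Fezf1, which act in different nuclei, were among these pairs.

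Lhx9 ran the other way against 5 of the other 8 genes. Its r was -0.97 with Fezf1, -0.96 with Rax, -0.93 with Nkx2-1, Otp and Nr5a1, -0.69 with Isl1, -0.30 with Sim1 and -0.10 with Hmx2. The first 5 had an adjusted p of 0.0167 to 0.0208 by exact permutation, and the others did not pass (0.0833 for Isl1, 0.67 for Sim1 and 0.986 for Hmx2). For Hmx2 the sign turned, to 0.30, without the 2 arrays farthest from the median. Of the 28 pairs without Lhx9, 24 had a positive r, and the share of positive pairs among all probes was not computed. In each group the array with the highest Fezf1 deviation had the lowest Lhx9 deviation: WT replicate 1 stood at 0.20 for Fezf1 and -0.36 for Lhx9, KO replicate 1 at 0.17 and -0.30, exercised WT replicate 1 at 0.17 and -0.45, and KE replicate 1 at 0.14 and -0.23. Against all 32070 probes detected on every array, only 0.0405% had a lower r with Fezf1 than Lhx9, and 0.153% a higher one than Rax.

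Isl1 passed with Otp only, and Sim1 and Hmx2 with none over the 11 arrays. Isl1 had r = 0.78 with Otp (exact permutation p = 0.0208, adjusted p = 0.05) and 0.78 with Fezf1 (0.0324 and 0.0686). By rank the pair with Otp did not pass (rho = 0.72, exact permutation adjusted p = 0.0938). Sim1 and Otp, which act in the same neurons during development, had r = 0.41 (rho = 0.51, exact permutation p = 0.396 and 0.255), and Isl1 and Hmx2, both arcuate factors, had r = -0.09. On the 6 exercised arrays of slide 2, all of which read Sim1 well above background, its r was 0.95 with Otp, 0.89 with Isl1, 0.86 with Fezf1 and Rax and -0.81 with Lhx9. It was 0.75 with Nkx2-1, 0.53 with Nr5a1 and -0.16 with Hmx2. This subset was taken after seeing the data, and no pair had an adjusted p up to 0.05 on slide 2 alone. On the 5 arrays of slide 1, of which 2 read it well above background, its r with Otp was 0.11. For Hmx2 each r over the 11 arrays lay between -0.10 and 0.27. Its exercised WT arrays deviated by 0.53, -0.75 and 0.21.

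The signs did not hang on single arrays. All 15 pairs kept their sign without each array in turn, where the weakest was r = 0.68 for Otp and Isl1 without WT replicate 1, on slide 2 alone (weakest 0.79) and on slide 1 alone (weakest 0.72). Without the 2 arrays farthest from the median of the gene on the x axis the weakest was 0.71, that of Rax and Nr5a1, and Fezf1 and Lhx9 kept r = -0.97. The number of pairs with an adjusted p up to 0.05 did change, to 0 without any 1 of the 3 exercised WT arrays and to 5 without any 1 of the 3 WT arrays.

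**Figure D4:**
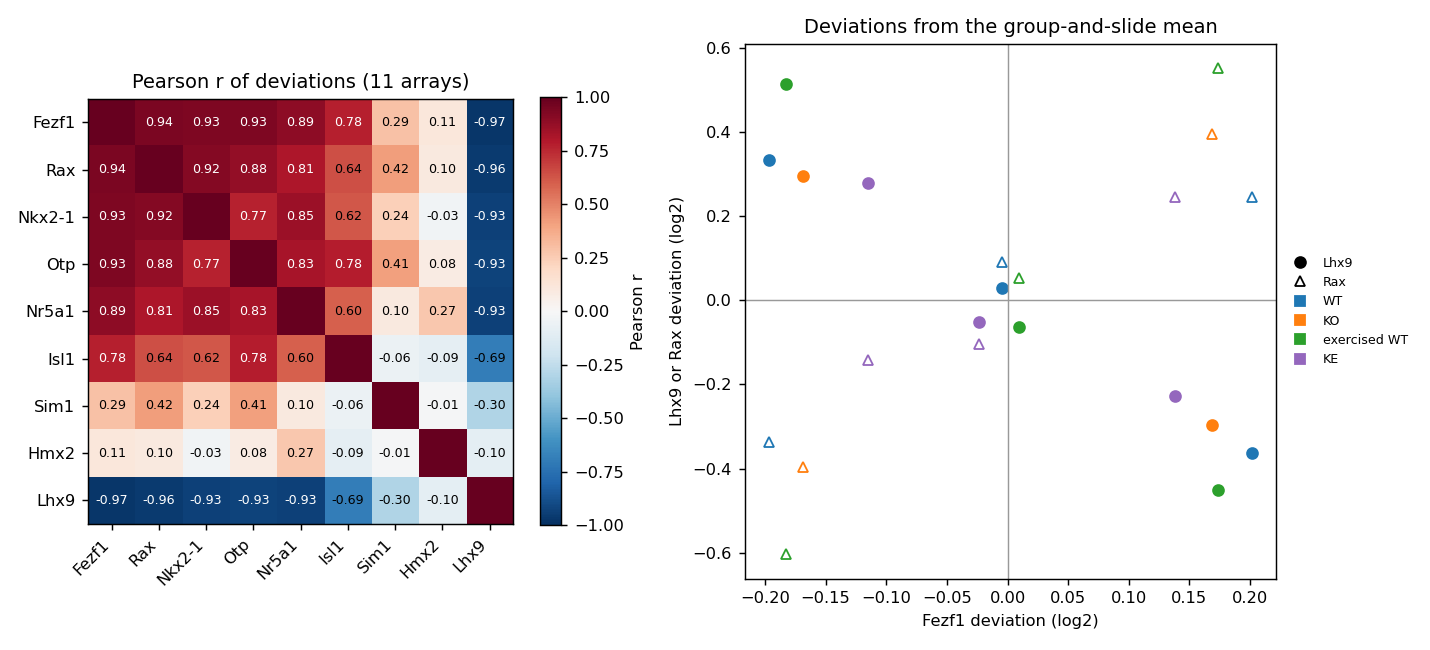
Left, Pearson's r between the deviations of the 9 genes from their group-and-slide means over 11 arrays (red positive, blue negative). Right, deviations of Lhx9 (filled circles) and Rax (open triangles) in log2 units against those of Fezf1, colored by group, where Lhx9 falls (r = -0.97) and Rax rises (r = 0.94) with Fezf1 in each group.

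Of the 7 marker lists of hypothalamic nuclei 3 moved with these deviations, as did 3 of the 5 lists for neighbouring tissue, a relation examined after the pairs had been seen. The mean deviation of each of 12 lists was set against Fezf1 and Lhx9, 24 relations in all, over the same 11 arrays. Genes were not scaled before the mean was taken, so a gene with a wide spread weighed more. With Fezf1, the ventromedial list had r = 0.90 (rho = 0.88), the suprachiasmatic list 0.89 (0.87) and the arcuate list 0.87 (0.89), while the thalamus list had -0.94 (-0.88), the list of cortex and hippocampus -0.90 (-0.88) and the striatum list -0.72 (-0.91). These 6 had an adjusted p of 0.0139 to 0.0324 for r by exact permutation, as they did with Lhx9, where the signs were turned (-0.91, -0.86, -0.93, 0.89, 0.92 and 0.82). For the other 6 lists the adjusted p was at least 0.363, and their r with Fezf1 was -0.52 for the paraventricular and supraoptic list, 0.39 for the lateral, 0.24 for the tanycyte and 0.46 for the mammillary list, -0.52 for choroid plexus and -0.04 for anterior pituitary. Without the 2 arrays farthest from the Fezf1 median, r with Fezf1 was 0.88, 0.84, 0.85, -0.93, -0.84 and -0.67 for those 6 lists. In the thalamus list Gbx2 had the widest SD within group and slide, 1.26 against 0.15 to 0.28 for the other genes. Gbx2 was dim, well above background on 10 arrays, and had r = -0.95 with Fezf1 by itself. Prkcd (-0.91) and Tcf7l2 (-0.78) also ran against Fezf1, whereas Lef1 (0.71) and Rgs16 (0.49) ran with it.

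The genes named next were chosen after their values were seen. With Fezf1 went Six6, a homeodomain factor of the hypothalamus and eye (r = 0.97), the ventromedial receptor gene Crhr2 (0.95), and the arcuate neuropeptide genes Cartpt (0.95), Pomc (0.94), Npy (0.89) and Agrp (0.87). Against it went the thalamic factor Gbx2 (-0.95), Prkcd (-0.91), the cortical factor Tbr1 (-0.87), the striatal receptor gene Adora2a (-0.78), and also Crh (-0.87), the stress hormone of the paraventricular nucleus. In the thalamus list 3 of 5 genes ran against Fezf1 and 2 ran with it, in the list of cortex and hippocampus 3 of the 5 tested genes ran against it, and in the striatum list 6 of 6 did, from -0.03 for Rgs9 to -0.78. The mean level of the thalamus list was 8.86 to 9.41 in WT, 8.73 to 9.28 in KO, 9.04 to 9.67 in exercised WT and 8.98 to 9.44 in KE, so the groups overlapped. The list of cortex and hippocampus had a mean level of 7.56 to 8.25 in WT, 7.45 to 7.82 in KO, 7.90 to 8.49 in exercised WT and 7.87 to 8.20 in KE, with KO below both exercised groups. The striatum list lay at 8.95 to 9.44 in WT, 8.98 to 9.07 in KO, 8.94 to 10.14 in exercised WT and 8.84 to 8.86 in KE, below all other arrays. The part of tissue from outside the hypothalamus in the values of the 9 genes was not tested.

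**Figure D5:**
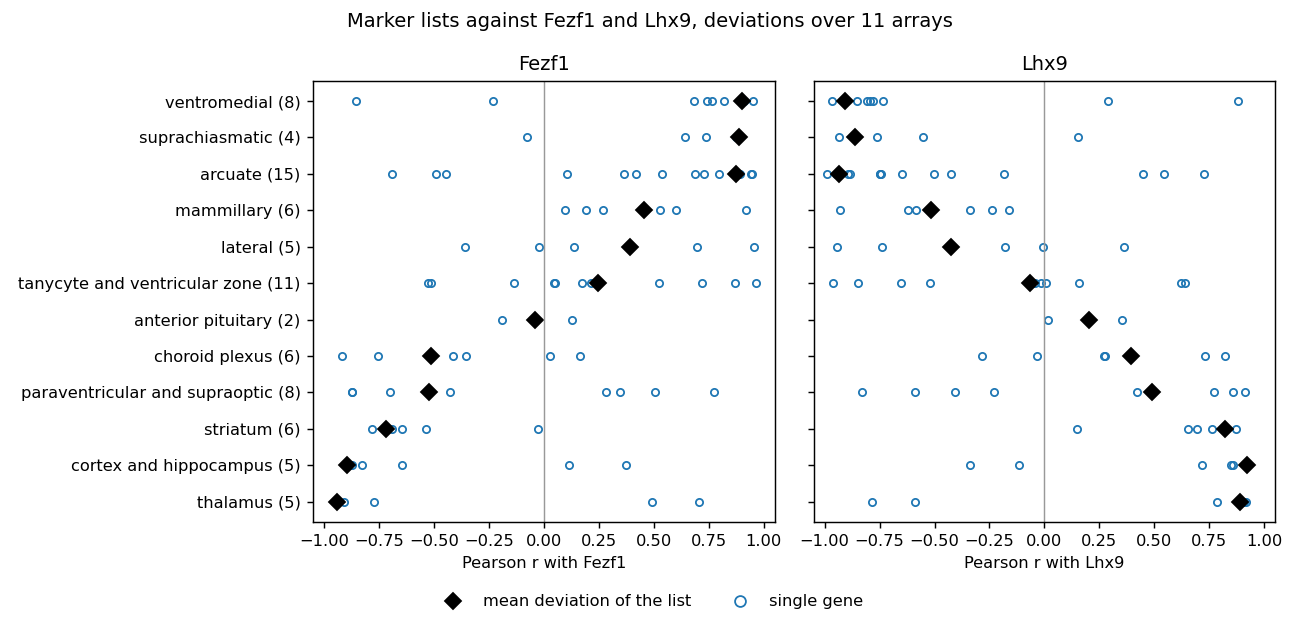
Pearson's r (horizontal axes) of marker genes with Fezf1 (left) and Lhx9 (right), from deviations over 11 arrays, for 12 lists with the number of tested genes in parentheses. Black diamonds are the mean deviation of the list and open circles single genes. The ventromedial, suprachiasmatic and arcuate lists lie at 0.87 to 0.90 with Fezf1 and the thalamus list at -0.94, with the signs turned for Lhx9.

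The probes most like each member in these deviations were named by rule from 28060 to 28062 probes with another gene symbol. These are the highest of many correlations over 11 arrays and are given as a description. Lhx9 was matched by Sema3a, an axon guidance gene (r = 0.999), and Pbx3, a homeodomain cofactor (0.99). Fezf1 was matched by Mst1r and Rprm (0.99 each), Nkx2-1 by Arid5b and Prph (0.98 each), Rax by Triap1 and Ctps2 (0.98 each), Nr5a1 by Col23a1 (0.98) and Sulf1 (0.97), and Otp by Ccdc82 and Pdcd11 (0.98 each). Sim1 was matched by Rpl35 and Zcchc11, Isl1 by LOC553096 and Clk4, and Hmx2 by Plekhg2 and Tuba1c, at r of 0.97 to 0.98.

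Other genes of the same nuclei were taken from the 7 hypothalamic lists, with 57 genes tested. At an unadjusted p of up to 0.05, 1 was higher and 2 were lower in KO versus WT, beside 5.47% of all tested probes. In KE versus KO it was 4 and 4 beside 21.1%, in exercised WT versus WT 1 and 3 beside 25.9%, in KE versus exercised WT 0 and 3 beside 6.71%, and in the interaction 1 and 2 beside 7.76%. In the fit blocked on slide the counts were 3 and 1 in KO versus WT (5.48%), 0 and 1 in KE versus KO (9.06%), 1 and 2 in KE versus exercised WT (10.3%), 1 and 1 in exercised WT versus WT (6.17%) and 2 and 2 in the interaction (10.9%). The higher gene in KO versus WT was Dio2, the tanycyte enzyme that activates thyroid hormone (0.35), and Nkx2-2 was lower (-0.20). Dio2 was lower in KE than in KO (-0.61) and than in exercised WT (-0.45), and its interaction was -0.80 (limma adjusted p = 0.477). Rax, which marks the same tanycytes, had a difference of -0.14 in KE versus KO and an interaction of -0.32. In KE versus exercised WT, Lhx2 (-0.33) and Crym (-1.06) were also lower. Crym stood at 10.22, 10.65 and 12.34 in exercised WT and at 10.11, 10.03 and 9.90 in KE, so exercised WT replicate 3 lay far above the rest. The median difference of the tanycyte list in this comparison was 0.03.

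In KE versus KO, Sst (0.32), Vim (0.20), Nkx2-2 (0.17) and Zfhx3 (0.33) were higher and Prdm12 (-0.23), Lhx2 (-0.27) and Rora (-0.18) were lower beside Dio2. In exercised WT versus WT, Vim, the intermediate filament of glia and tanycytes, was higher (0.31), and Avp, the vasopressin gene (-0.43), and Pdyn (-0.33) were lower. The blocked fit kept 1 call on a hypothalamic list gene at p up to 0.05 in KE versus KO and exercised WT versus WT. That call was Dio2 in KE versus KO (-0.34). In the blocked fit Sst stood at 0.10, Zfhx3 at 0.07 and Rora at -0.01 in KE versus KO. Vim stood at 0.14, Avp at -0.17 and Pdyn at -0.05 in exercised WT versus WT. The same fit kept Dio2 and Nkx2-2 in KO versus WT, and Dio2 and Lhx2 but not Crym in KE versus exercised WT. It also kept the interactions of Dio2, Nkx2-2 and Lhx2. The interaction was 0.29 for Nkx2-2 and -0.40 for Lhx2. None of these had an adjusted p under 0.05 in limma. Of the lists for neighbouring tissue, the genes at p up to 0.05 were Folr1, Tshb and Lhb in KO versus WT, Rgs16, Drd2 and Folr1 in KE versus KO, Lhb in exercised WT versus WT, Drd1 and Adora2a in KE versus exercised WT, and Folr1 and Lhb in the interaction.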

How the data were processed

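Single-color arrays of 12 hypothalamus samples were analysed, with groups and replicate numbers taken from the titles in the labels. Per array, the authors deposited a scanner file with the background-corrected intensity from Agilent Feature Extraction 10.7.1.1. The authors also deposited log2 values after quantile normalization. Probe symbols, mm9 coordinates and sequences come from that table. Tables of the authors' comparisons hold fold changes and p-values and were not used, nor were their 24 columns of sample values.

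Intensities were log2-transformed, outlier spots were dropped, repeated spots were averaged to 1 value per probe, and quantile normalization between arrays was run in R 4.3.3. The result differed from the deposited log2 table by at most 0.00356 at the probes of these genes. A model of group means was fitted in limma 3.58.1 on the 12 arrays together, with Benjamini-Hochberg adjustment over the 35229 tested probes. The fit was tested on simulated data. The fold (2) and p (0.05) thresholds and the filter follow the methods, and limma replaces the plain test used there because groups hold 3 arrays, whose number limits the precision. The brightest probe of a gene was described in full, the 2 most alike probes of each member were named, and list genes were named at an unadjusted p of up to 0.05, at most 4 a comparison and list. The 12 lists hold 87 genes, of which 1 that the rule names is not reported here. Members and lists were chosen with earlier results of these data known. Alternatives were 75th percentile scaling, normexp correction with offset 50, the deposited table, other filters, the methods' test, slide and replicate blocks, 1 slide only, outlier spots kept, probes averaged per gene, and each array left out. Array-by-array and slide-only correlations, and those of the lists, were added after seeing the data. Figures were drawn with matplotlib 3.10.9.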

Additional observations from a re-analysis of the deposited data

How the results depend on the processing

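Of the counts of probes and of correlated pairs, 193 values under alternatives stayed within 1.5 times the reported count and 36 did not. Each count of the members is given with the share of all tested probes under the same setting in parentheses. For KO versus WT the count at p up to 0.05, reported as 1 (5.47%), was 0 with normexp correction (5.01%) and 2 with no detection filter (4.91%) and with the methods' test (3.51%), and leaving out each array gave 1 to 3 (3 without WT replicate 1, 4.59%, or KO replicate 2, 8.46%, and 2 without exercised WT replicate 3, 5.07%). With no detection filter 1 probe met the screening criterion there (0.864%). For KE versus KO, reported as 3 (21.1%), it was 5 with normexp (20.1%), 1 with a slide block (9.06%), and 1 to 4 without each array (1 without KE replicate 2, 14%, or 3, 15.8%). Without KO replicate 3 the criterion was met there by 1 probe (3.37%), Sim1, which neither remaining KO array read well above background. For exercised WT versus WT, reported as 3 (25.9%), it was 1 with the methods' test (26.1%) and with the slide block (6.17%), and 1 to 4 without each array (1 without exercised WT replicate 2, 19.8%). The criterion there, reported as 1 (2.19%), was met by 0 probes with normexp (0.738%), with the filter on all 12 arrays (1.38%), where Sim1 was not tested, and without WT replicate 3 (2.09%). Leaving out each array gave 0 to 2 in KE versus exercised WT (2 without exercised WT replicate 1, 6.75%) and 0 to 1 in the interaction (1 without WT, KO or KE replicate 1 or KO replicate 3, 6.74% to 10.9%), where the slide block gave 1 (10.9%). Sim1 in exercised WT versus WT reversed to -1.10 with the slide block. Of 45 fold changes at the brightest probes, 8 changed sign with the slide block, 1 with 75th percentile scaling and 0 with the deposited table. The cause of these changes was not tested.

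Over all probes, deviations of arrays with the same replicate number correlated from -0.19 to 0.25, so the numbers were not taken to pair the arrays. At Fezf1, Rax, Nkx2-1 and Otp, however, deviations fell with the replicate number in each of the 4 groups, and at Lhx9 they rose with it. Whether the numbers pair arrays at these genes is therefore not settled by the check over all probes. A replicate block gave 2 (6.25%), 7 (20.9%), 5 (25.8%) and 1 (8.68%) probes at p up to 0.05 in KO versus WT, KE versus KO, exercised WT versus WT and the interaction. With it the difference of KE and KO at the brightest Fezf1 probe, -0.31, had a limma adjusted p of 0.127, against 0.255 without. The correlated pairs, reported as 15, numbered 14 with 75th percentile scaling, 0 on slide 2 alone and 0 on slide 1 alone, where the smallest possible p was 0.0278 and 0.0833, and 0 to 15 without each array. A single slide holds no value for exercised WT versus WT or the interaction. Signal over background limited 3 probes, 1 each of Otp, Rax and Nr5a1, which were not well above background in any whole group and were not tested.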
